A study of Arabidopsis thaliana with 9 samples.

Results

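The 146 loci of the Arabidopsis thaliana mitochondrial genome were taken as all rows whose locus identifier begins with ATMG, out of 33557 rows in each of 2 deposited expression tables. The tables hold FPKM, a fragment count scaled by transcript length and library depth. The 9 libraries were made from Col-0 seedlings grown for 14 days on solid MS medium and then given liquid MS medium for 12 h in the light. The doxycycline group was wild-type plants given 25 µg/ml of the antibiotic, and the mrpl1-1 group was the mutant without drug. Both were compared with untreated wild type, with 3 biological replicates in each group. The labels do not give the kind of lesion in mrpl1-1 or the number of plants pooled in a library. All RNA was enriched for poly(A), and sequenced on an Ion Torrent Proton.

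Plant mitochondria keep a small genome that encodes core subunits of respiratory complexes I, III, IV and V, proteins of cytochrome c maturation, a few ribosomal proteins and the ribosomal RNAs. The remaining subunits are made in the cytosol and imported. Doxycycline blocks translation on bacterial-type ribosomes, and MRPL1 is a protein of the large subunit of the mitochondrial ribosome. Poly(A) tails in plant mitochondria mark RNA for degradation rather than stability, so a library enriched for poly(A) samples only a fraction of each mitochondrial transcript. A nuclear insertion on chromosome 2 in Col-0 carries a large copy of the mitochondrial genome.

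Most mitochondrial loci were listed at 0. Of the 146 loci, 85 were listed at 0 in all 9 libraries, 22 were above 0 in every library, and 35 reached a mean of 1 FPKM in at least 1 table. At that level 31 loci were measured in the doxycycline table and 33 in the mrpl1-1 table. A known function was assigned to 41 loci and the other 105 were treated as open reading frames and other loci. In the mrpl1-1 table the measured loci comprised 5 of 14 loci of complex I, 0 of 1 of complex III, 2 of 3 of complex IV and 2 of 6 of complex V. They also comprised 1 of 5 of cytochrome c maturation, 2 of 7 of the ribosomal proteins, 3 of 3 of the ribosomal RNAs and 18 of 105 of the other loci. Genes of the respiratory complexes and of cytochrome c maturation were among those listed at 0. Examples were cob (cytochrome b, the catalytic core of complex III), nad4 and nad6 (membrane subunits of complex I) and ccmC (a heme handling protein of cytochrome c maturation). A value of 0 is therefore reported as a listing, not as an absence of transcript.

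Among loci of known function, those listed at or near 0 had over 80% of their sequence repeated exactly outside the mitochondrial genome, and all but 1 of the measured loci had less. In the RefSeq assembly TAIR10.1 the mitochondrial genome has 367808 bases, and 70.7% of its 50-base windows had an exact match on another chromosome, 70.4% on chromosome 2. The following stretches show a gene copied whole and listed at 0 (cob) and the edge of the matching stretch in measured genes (atp6-2 and rpl16). The first 2 lines are the start of cob in the mitochondrion (MT:182769-182858, minus strand) and in AT2G07727 on chromosome 2 (chr2:3450863-3450952, plus strand), where the whole coding sequence of 1182 bases was found without a mismatch. The other 2 lines cross the edge of the matching stretch in atp6-2 (MT:265183-265272, minus strand, bases 245 to 334 of the coding sequence) and in rpl16 (MT:23459-23548, plus strand, bases 175 to 264). In those 2 lines capitals mark bases that lie in a 50-base window with an exact match elsewhere. All are from RefSeq, build TAIR10.1.
cob, mitochondrion: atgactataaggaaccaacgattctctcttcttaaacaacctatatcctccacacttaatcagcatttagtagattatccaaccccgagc
cob copy, chromosome 2: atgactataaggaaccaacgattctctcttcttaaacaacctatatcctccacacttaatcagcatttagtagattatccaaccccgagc
atp6-2, mitochondrion: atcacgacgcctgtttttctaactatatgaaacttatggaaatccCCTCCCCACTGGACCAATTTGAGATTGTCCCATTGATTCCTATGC
rpl16, mitochondrion: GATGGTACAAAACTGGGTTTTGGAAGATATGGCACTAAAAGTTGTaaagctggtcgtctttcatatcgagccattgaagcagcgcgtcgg

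A share of matching windows could be computed for 40 of the 41 loci of known function, the exception being a 22-base exon of nad5. All 14 loci with a share of 80% or less were measured, with a mean of 1.83 FPKM or more in the table where they were higher. Of the 26 loci above 80%, 1 was measured, nad1 part C, at a share of 82.3%. None of the 18 loci with a share of 100% was measured, and 14 of them were listed at 0 in every library. All 8 loci with a share of 0% were measured, among them cox1 (the catalytic subunit of complex IV), nad9 (a peripheral-arm subunit of complex I), ccmB (a membrane subunit of the cytochrome c maturation transporter) and atp4 (a stator subunit of ATP synthase). Shares between these belonged to rrn18 (0.4%), rps3 (7.4%), cox2 (18.5%), nad1 part B (19.2%), rpl16 (34.6%) and atp6-2 (71.1%, with 761 of 1050 bases in matching windows). Of these nad1 part B was the weakest, with a mean of 0.88 FPKM in the doxycycline table, under the filter, and 1.83 FPKM in the mrpl1-1 table, and with values above 0 in 4 of 9 libraries. The split at 80% was chosen after the values were seen. The share is a description of the reference sequence, and its part in the listing at 0 was not tested. Repeats within the mitochondrial genome were left out, so which mitochondrial locus lies behind the match in atp6-2 was not determined. The labels do not say how reads with several matches were treated, and the mitochondrial sequence of their build, TAIR10, was not used here.

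**Figure D1:**
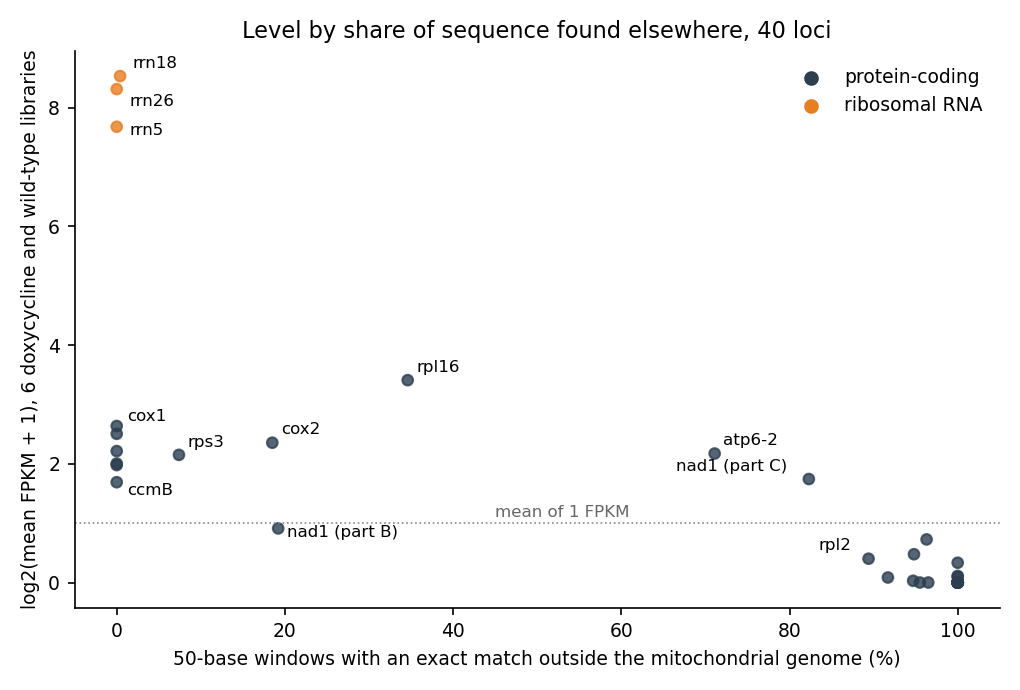
Mean level of 40 mitochondrial loci over the 6 libraries of the doxycycline table, as log2(mean FPKM + 1), against the percentage of 50-base windows of the gene with an exact match outside the mitochondrial genome. The 14 loci at 80% or less include the 3 ribosomal RNAs near the top, and 25 of the 26 loci above 80% had a mean under 1 FPKM in each table.

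Nuclear copies of these loci were mostly listed at or near 0 as well. The annotation of chromosome 2 names 53 mitochondrial loci as the best match or source of a nuclear locus. Of these 53 loci, 36 were listed at 0 in all libraries, and for 27 of the 36 every nuclear partner was listed at 0 too. Among the 53, 5 were measured (9.4%), against 30 of the 93 mitochondrial loci that the annotation does not name (32.3%). In the range AT2G07600 to AT2G07850, which holds the insertion, 106 of 151 loci were listed at 0 in every library and 9 had a mean of 1 FPKM or more. The range was cut by locus number, so it can also hold nuclear genes that are not copies. Of the 9 loci, only AT2G07698 and AT2G07808 are partners named in the annotation. The cob partner AT2G07727 was above 0 in 9 of 9 libraries, with a mean of 0.877 FPKM, while cob itself was listed at 0. The highest partner mean was 15.4 FPKM, at AT2G07808, annotated as a pseudogene of ATMG01330, which had a mean of 2.025 FPKM. Another partner with signal was AT2G07698, annotated against atp1 (the alpha subunit of ATP synthase). The mean of AT2G07698 was 2.92 FPKM, against 0.107 FPKM for atp1. It had 2.44, 2.42 and 2.26 FPKM with doxycycline, against 1.86, 2.86 and 3.09 FPKM in wild type. In the other table it had 1.82, 7.22 and 2.33 FPKM in mrpl1-1, against 1.75, 2.69 and 2.91 FPKM in wild type. A read inside a stretch with an exact nuclear match cannot be assigned to the mitochondrial or the nuclear copy. For cob and atp1 the share of matching windows was 100%, and for ATMG01330 it was not computed.

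The ribosomal RNAs stood far above the protein-coding loci of known function, and only ATMG00030, described with the other loci, was measured at a like level throughout. In untreated wild type (doxycycline table) rrn18, the small-subunit RNA, averaged 369 ± 50.5 FPKM, rrn26, the large-subunit RNA, 321 ± 94.2 FPKM, and rrn5 248 ± 158 FPKM (SD, n = 3 each). These 3 levels overlapped across libraries. The 3 ribosomal RNAs together held 60.3% to 68.0% of all mitochondrial FPKM with doxycycline, 55.2% to 64.8% in mrpl1-1 and 53.3% to 71.0% in wild type. In wild type the measured protein-coding loci of known function had means between 1.25 and 8.19 FPKM. There rpl16 (a large-subunit ribosomal protein) was the highest, at 8.19 ± 2.44 FPKM, followed by nad5 part C (the last exons of a membrane subunit of complex I) at 5.22 ± 1.06, cox1 at 4.89 ± 1.11 and nad1 part C at 4.34 ± 4.67 FPKM. Neighbours in this order did not differ beyond their spread. The 38 protein-coding loci of known function summed to 43.2, 54.3 and 43.0 FPKM with doxycycline, against 41.8, 47.3 and 55.3 FPKM in wild type.

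**Figure D2:**
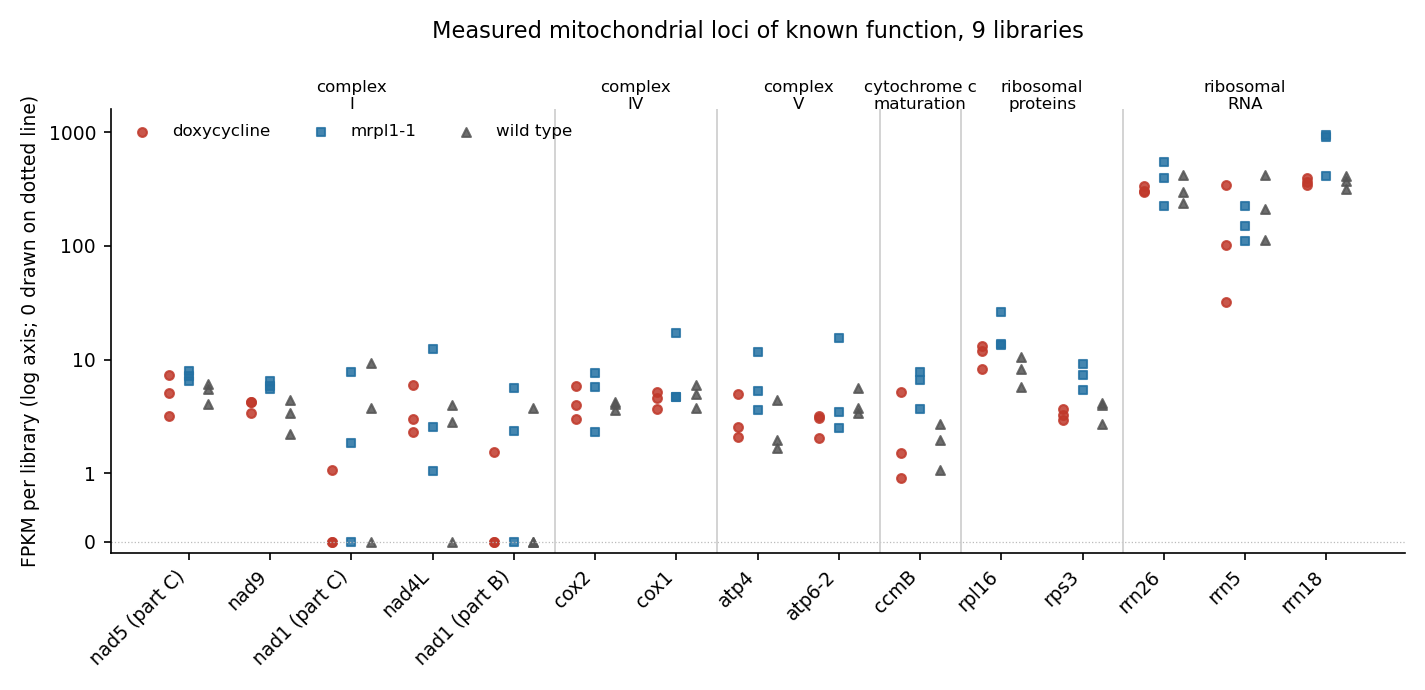
FPKM in each library (log axis, with 0 drawn on the dotted line) of the 15 measured loci of known function, grouped by complex, for doxycycline (circles), mrpl1-1 (squares, divided by 0.94058 to bring the tables to one scale for display) and wild type (triangles). The ribosomal RNAs lie above 30 FPKM in every library, and the protein-coding loci below 30 FPKM.

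The levels of the protein-coding loci rest on few reads. From genes with low values, 1 read on a transcript of 1 kb was estimated at roughly 0.12 to 0.32 FPKM, without read counts to check it. The protein-coding loci of the measured set had an estimated 15 reads per library at the median, with a range of 0 to 126. Estimated reads per library were 2267 to 8381 for rrn18, 3887 to 8048 for rrn26 and 20 to 407 for rrn5. Wild-type replicate 3 and mrpl1-1 replicate 1 were the shallowest libraries, where 1 read was worth 2.65 and 2.60 times as much as in wild-type replicate 1. Mitochondrial loci made up 0.145% to 0.211% of all FPKM with doxycycline, 0.18% to 0.29% in mrpl1-1 and 0.18% to 0.217% in wild type.

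Doxycycline for 12 h left no mitochondrion-encoded gene above or below wild type past the test. None of the 31 measured loci had an adjusted p under 0.05 (limma on log2(FPKM + 1), Benjamini-Hochberg over all 19073 genes), where 35 genes, 0.184%, were called in all. At an unadjusted p under 0.05 there were 3 of 31, beside 8.49% of all genes. Of the 31 differences 15 lay above 0 and 16 below, with a median of -0.03 on the log2(FPKM + 1) scale, beside 0.00 over all genes (0.003). In whole seedlings, fewer mitochondria and less RNA in each cannot be told apart. Standard errors ran from 0.14 to 0.84 log2 units among the 14 loci of known function, so the missing calls do not show that levels were equal.

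By function, complex I gave differences from -1.52 to 0.76. Its nad9 had 4.23, 3.38 and 4.25 FPKM with doxycycline, against 3.36, 4.4 and 2.23 FPKM in wild type, and the groups overlapped. For nad5 part C the values were 3.19, 7.37 and 5.10 FPKM with doxycycline and 5.50, 6.11 and 4.05 FPKM in wild type. The lowest difference was that of nad1 part C (the 3' exons of a membrane subunit joined by trans-splicing), at 0, 1.06 and 0 FPKM with doxycycline, against 0, 3.75 and 9.28 FPKM in wild type. It passed the filter through wild type alone, and a library of each group was listed at 0. The small subunit nad4L had 2.30, 5.97 and 3.0 FPKM with doxycycline, against 3.96, 2.83 and 0 FPKM in wild type.

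The copper-binding subunit cox2 of complex IV had 3.95, 5.82 and 2.99 FPKM with doxycycline, against 3.58, 4.09 and 4.26 FPKM in wild type. For cox1 the values were 4.55, 5.17 and 3.65 FPKM with doxycycline, against 3.76, 4.94 and 5.98 FPKM in wild type. Neither separated the groups, and the log2 differences were 0.05 ± 0.22 for cox2 and -0.10 ± 0.20 for cox1 (SE).

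In complex V, atp6-2, which encodes the proton-channel subunit a of ATP synthase, was the one locus of known function whose replicates did not overlap. It had 2.04, 3.18 and 3.07 FPKM with doxycycline, against 3.78, 3.39 and 5.59 FPKM in wild type. The difference was -0.47 ± 0.22 (SE; limma, adjusted p = 0.626), which is no call. The stator subunit atp4 had 2.56, 4.98 and 2.09 FPKM with doxycycline, against 1.65, 1.97 and 4.38 FPKM in wild type, with overlap.

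Among the ribosomal proteins rpl16 had 8.21, 11.9 and 13.1 FPKM with doxycycline, against 8.29, 5.70 and 10.6 FPKM in wild type, a difference of 0.40 ± 0.24 (SE; limma, adjusted p = 0.691). The small-subunit protein rps3 had 2.96, 3.67 and 3.22 FPKM with doxycycline, against 4.11, 2.73 and 3.94 FPKM in wild type. Both pairs of groups overlapped, as did ccmB, with 5.19, 0.897 and 1.5 FPKM under doxycycline and 2.73, 1.06 and 1.97 FPKM in wild type.

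The ribosomal RNAs rrn18 and rrn26 overlapped between doxycycline and wild type. The mean of rrn18 was 369 ± 28.1 FPKM with doxycycline and 369 ± 50.5 FPKM in wild type, and that of rrn26 was 312 ± 19.5 FPKM with doxycycline and 321 ± 94.2 FPKM in wild type (SD, n = 3 each). For rrn18 the libraries gave 398, 342 and 365 FPKM with doxycycline, against 316, 416 and 375 FPKM in wild type. For rrn26 they gave 335, 302 and 300 FPKM with doxycycline, against 239, 298 and 424 FPKM in wild type. The log2 differences were 0.01 ± 0.14 for rrn18 and 0.00 ± 0.20 for rrn26 (SE, 0.203). The short rrn5 ranged widely, at 343, 102 and 32.0 FPKM with doxycycline, against 422, 211 and 112 FPKM in wild type.

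Of the 17 other measured loci 1 had replicates that did not overlap. ATMG01090, matched to ATP synthase subunit 9 by the chromosome 2 annotation, had 6.79, 5.98 and 7.79 FPKM with doxycycline, against 3.01, 2.78 and 5.16 FPKM in wild type, with a difference of 0.79 ± 0.22 (0.785, SE; limma, adjusted p = 0.415). This value was the smallest adjusted p of the 31 loci. With atp6-2, replicates did not overlap at 2 of 31 loci, or 6.45%, beside 16.0% of all genes (8.51% higher and 7.48% lower). ATMG00030 was the highest of these loci, at 388, 356 and 242 FPKM with doxycycline, against 285, 479 and 655 FPKM in wild type. In RefSeq an open reading frame named ORF107A overlaps rrn26 on the opposite strand over 185 of its 324 bases. The tables do not pair ATMG00030 with that frame, and no label says whether counting used strand. ATMG01070 was listed at 152 FPKM in wild-type replicate 2 and at 0 in the other 8 libraries. ATMG00660 had 15.6, 15.7 and 12.1 FPKM with doxycycline, against 16.3, 12.6 and 9.98 FPKM in wild type.

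In mrpl1-1 the loci ccmB, rps3, rpl16, nad9 and nad5 part C were each higher in all 3 mutant libraries than in any wild-type library. Among the loci of known function, these 5 lie next to one another in the mitochondrial genome. In TAIR10.1 they follow in that order, with no other locus of known function between them, over 10523 bases, with rps3 and rpl16 overlapping by 134 bases and ccmB on the opposite strand to the other 4. None of the 5 passed the test over all genes. By locus number ATMG00100 falls between rps3 and ccmB, and it was listed at 0 in every library.

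The locus ccmB had 7.26, 6.19 and 3.46 FPKM in mrpl1-1, against 2.56, 0.999 and 1.85 FPKM in wild type (mrpl1-1 table). Its mean was 5.64 ± 1.96 FPKM in the mutant and 1.81 ± 0.784 FPKM in wild type (SD, n = 3 each), 3.12 times as high, with a difference of 1.24 ± 0.32 (1.235, SE; limma, adjusted p = 0.819). The lowest mutant library lay above the highest wild-type library.

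The ribosomal protein gene rps3 had 6.91, 8.6 and 5.08 FPKM in mrpl1-1, against 3.86, 2.57 and 3.71 FPKM in wild type. Its difference was 0.83 ± 0.24 (SE; limma, adjusted p = 0.931), with means 2.03 times apart. Its neighbour rpl16 had 12.8, 24.6 and 12.9 FPKM in mrpl1-1, against 7.80, 5.36 and 9.96 FPKM in wild type. The difference was 1.00 ± 0.30 (0.996, SE; limma, adjusted p = 0.931), with means 2.17 times apart. Mutant replicate 2 was the highest library for both genes, and the other 2 mutant libraries were also above every wild-type one.

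The complex I gene nad9 had 5.47, 5.13 and 6.14 FPKM in mrpl1-1, against 3.16, 4.14 and 2.10 FPKM in wild type, with a difference of 0.70 ± 0.24 (SE; limma, adjusted p = 0.931). For nad5 part C the values were 7.46, 6.10 and 6.70 FPKM in mrpl1-1, against 5.17, 5.74 and 3.81 FPKM in wild type, with a difference of 0.40 ± 0.21 (SE; limma, adjusted p = 0.931). At these 2 loci mutant replicate 2 was the lowest of the 3 mutant libraries.

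The 5 loci are those without overlap, so the direction of their sum follows from that choice. Summed over them, the level was 39.9, 50.6 and 34.3 FPKM in mrpl1-1, against 22.6, 18.8 and 21.4 FPKM in wild type. The other 33 protein-coding loci of known function summed to 19.1, 73.2 and 26.8 FPKM in mrpl1-1, against 16.8, 25.7 and 30.6 FPKM in wild type, with overlap. With doxycycline the sum over the 5 neighbours was 23.8, 27.2 and 27.1 FPKM, against 24, 20.0 and 22.8 FPKM in wild type (doxycycline table), also with overlap. An estimated 10 to 70 reads stood behind each of the 15 mutant values and 4 to 56 behind each wild-type value. Loci with numbers just outside the stretch overlapped between groups: ATMG00050 had 3.13, 4.59 and 0.00121 FPKM in mrpl1-1, against 0.0665, 0.571 and 4.58 FPKM in wild type, and ATMG00120 had 1.1, 0.751 and 0.450 FPKM in mrpl1-1, against 0.424, 1.21 and 2.25 FPKM in wild type.

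**Figure D3:**
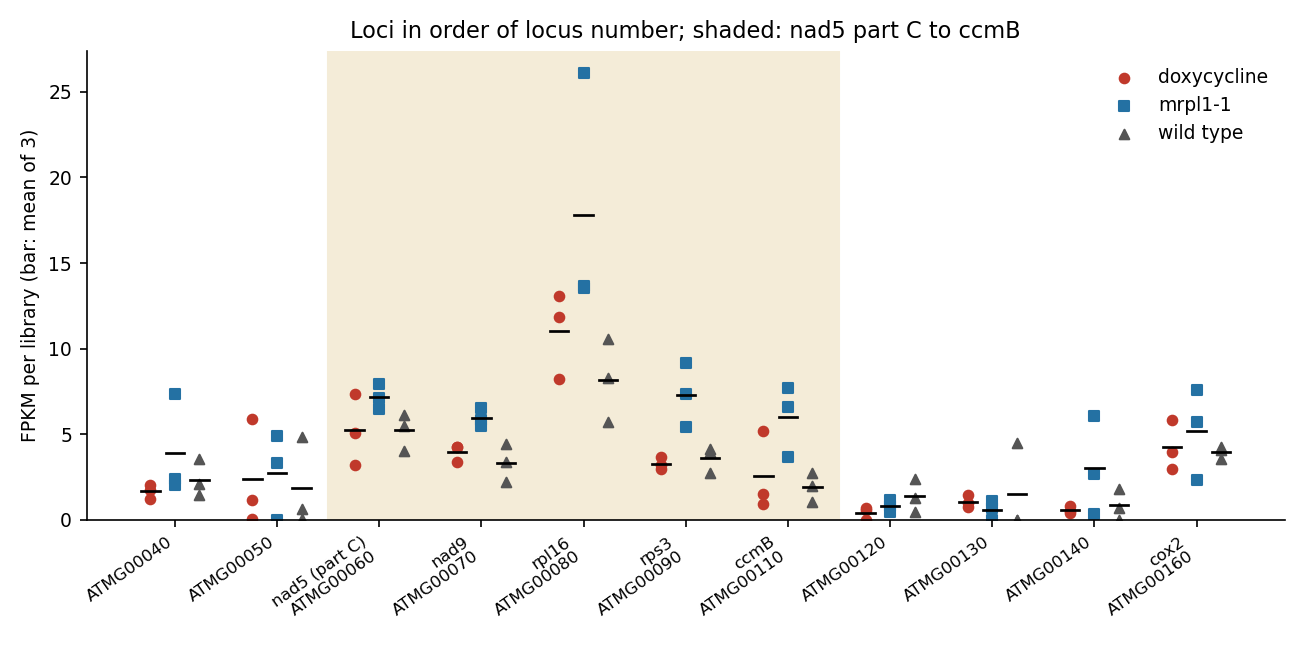
FPKM in each library of the measured loci from ATMG00040 to ATMG00160, in order of locus number, for doxycycline (circles), mrpl1-1 (squares, divided by 0.94058 for display) and wild type (triangles), with bars at the mean of 3 libraries. In the shaded stretch all 3 mutant points of each locus lie above its wild-type points, and the doxycycline points overlap with wild type.

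Over all measured loci, none of 33 was called in mrpl1-1 against wild type (limma, adjusted p under 0.05 over 18994 genes), where 7 genes, 0.0369%, were called in all. At an unadjusted p under 0.05 there were 8 of 33, beside 4.46% of all genes. Replicates did not overlap at 6 of 33 loci (18.2%, beside 10.1% of all genes), with 5 higher (15.2%, beside 5.09%) and 1 lower (beside 5.04%). All 5 higher loci were among the 12 measured protein-coding loci. The median difference was 0.45 (0.446), beside 0.00 (-0.001) over all genes, and 27 of 33 loci lay above 0. Loci that reached the filter through only 1 group numbered 5, and the median over the other 28 was 0.48.

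This median was carried by a single library. In mutant replicate 2 the median of the 33 loci stood 1.35 log2 units above the wild-type mean, with 28 loci above it, against 0.05 (0.045) in replicate 1 and -0.03 in replicate 3. In the same library the median of 94 plastid-encoded loci was 0.72 above the wild-type mean and that of all genes 0.01 (0.013). Without it the median of the mitochondrial loci was -0.03 and 15 of 34 loci lay above 0.

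**Figure D4:**
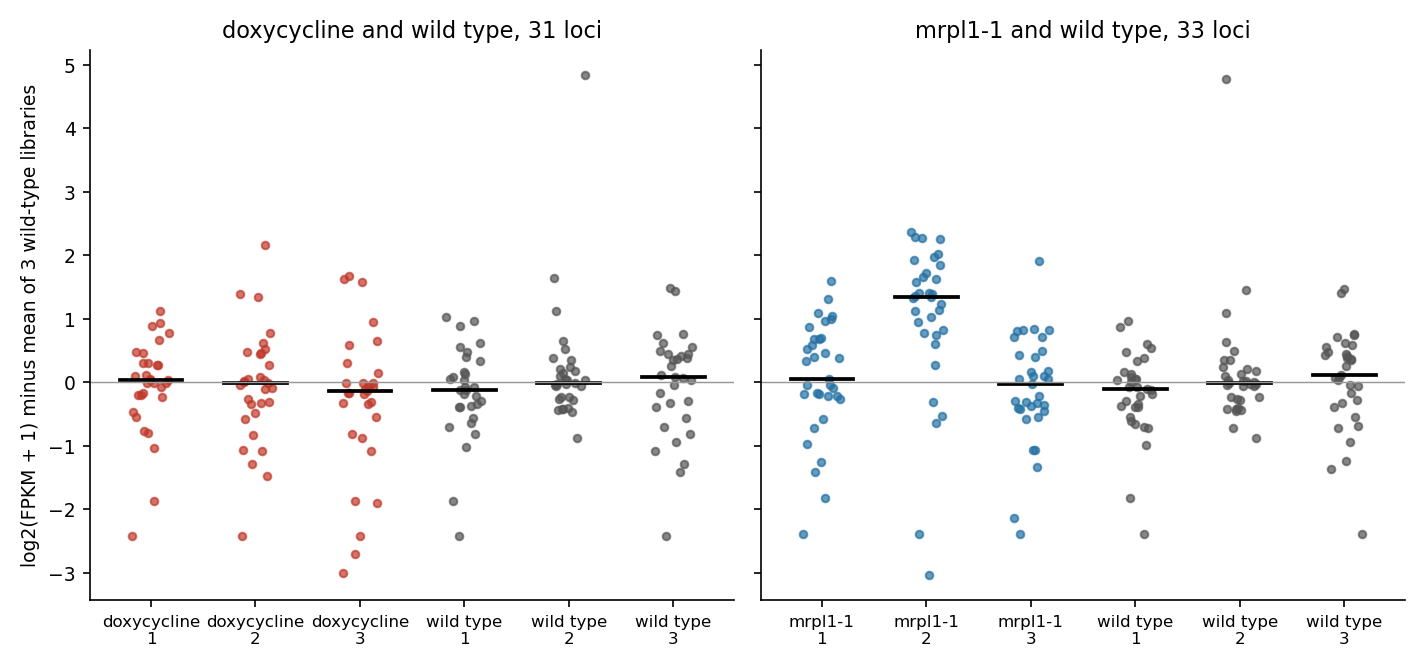
Difference of each measured mitochondrial locus in each library from the mean of the 3 wild-type libraries, as log2(FPKM + 1), for the doxycycline table (left, 31 loci) and the mrpl1-1 table (right, 33 loci), with black bars at the median. Mutant replicate 2 has a median of 1.35 and the other mutant libraries lie at 0.05 and -0.03.

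The remaining protein-coding loci were mostly highest in that library. In complex IV, cox1 had 4.41, 16.2 and 4.43 FPKM in mrpl1-1, against 3.54, 4.65 and 5.63 FPKM in wild type, and cox2 had 2.18, 7.15 and 5.35 FPKM in mrpl1-1, against 3.36, 3.84 and 4.01 FPKM in wild type. In complex V, atp6-2 had 3.22, 14.6 and 2.37 FPKM in mrpl1-1, against 3.55, 3.19 and 5.26 FPKM in wild type. The atp4 locus had 3.36, 11.0 and 4.95 FPKM in mrpl1-1, against 1.55, 1.85 and 4.12 FPKM in wild type. All 4 overlapped between groups, and in each the highest library was mutant replicate 2. In complex I, nad4L had 2.42, 11.5 and 0.988 FPKM in mrpl1-1, against 3.72, 2.66 and 0 FPKM in wild type. The trans-spliced nad1 was listed at 0 in replicate 1 of both groups at both measured parts. Part C had 0, 7.29 and 1.75 FPKM in mrpl1-1, against 0, 3.53 and 8.73 FPKM in wild type, and part B had 0, 2.19 and 5.25 FPKM in mrpl1-1, against 0, 3.53 and 0 FPKM in wild type.

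The ribosomal RNAs diverged among mutant libraries. The small-subunit RNA rrn18 had 857, 883 and 387 FPKM in mrpl1-1, against 297, 391 and 353 FPKM in wild type. Replicates 1 and 2 of the mutant were above every wild-type library, while replicate 3 lay within their range. The difference was 0.94 ± 0.34 (SE; limma, adjusted p = 0.931). The large-subunit RNA rrn26 had 369, 518 and 213 FPKM in mrpl1-1, against 225, 281 and 399 FPKM in wild type. The rrn5 RNA had 103, 140 and 210 FPKM in mrpl1-1 (140.5 in replicate 2), against 397, 198 and 105 FPKM in wild type. Both overlapped.

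Among the 18 other loci 1 was lower in all 3 mutant libraries than in any wild-type library. ATMG01130 had 2.09, 0 and 0.853 FPKM in mrpl1-1, against 4.02, 6.89 and 12.8 FPKM in wild type. Its difference was -2.19 ± 0.48 (SE; limma, adjusted p = 0.513), the smallest adjusted p of the 33 loci, and it reached the filter through wild type alone. Under doxycycline the same locus had 10.9, 6.19 and 1.3 FPKM, against 4.28, 7.33 and 13.6 FPKM in wild type, with overlap. ATMG00030 had 635, 920 and 319 FPKM in mrpl1-1, against 268, 450 and 617 FPKM in wild type. ATMG00660 had 10.2, 41.8 and 12.9 FPKM in mrpl1-1, against 15.3, 11.8 and 9.39 FPKM in wild type, and ATMG01070 was listed at 0 in all 3 mutant libraries. ATMG01090 had 2.59, 19.8 and 1.06 FPKM in mrpl1-1, against 2.83, 2.62 and 4.86 FPKM in wild type. Over the 18 loci the differences ran from -2.39 to 1.39 with a median of 0.44, and 14 lay above 0.

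The 2 comparisons share their wild-type libraries, so their values are set side by side without a test. For ccmB the difference from wild type was 0.12 with doxycycline and 1.24 (1.235) in mrpl1-1. For rps3 it was -0.09 with doxycycline and 0.83 in mrpl1-1, and for rpl16 it was 0.40 with doxycycline and 1.00 (0.996) in mrpl1-1. For nad9 it was 0.22 with doxycycline and 0.70 in mrpl1-1, and for nad5 part C it was -0.04 with doxycycline and 0.40 in mrpl1-1. Whether the responses to the drug and to the mutation differ was not tested.

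**Figure D5:**
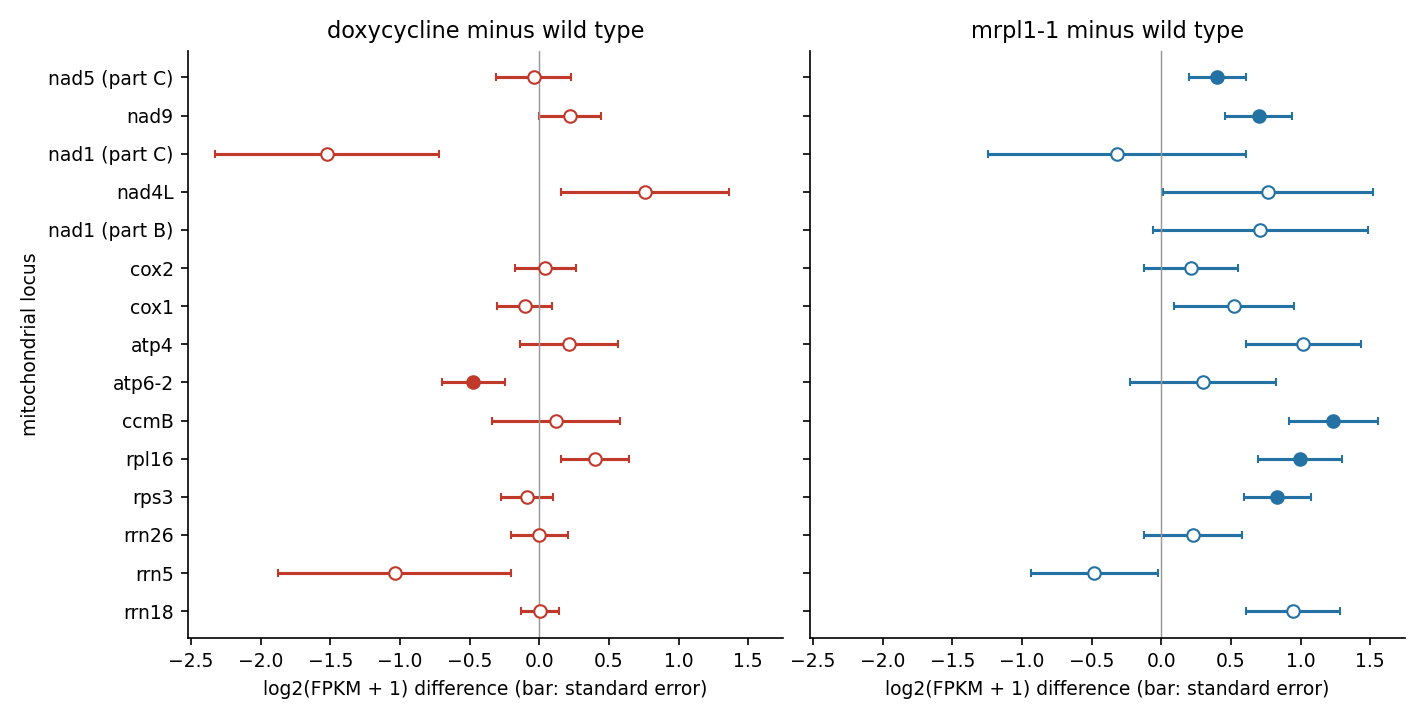
Difference from wild type in log2(FPKM + 1), with its standard error, for the measured loci of known function with doxycycline (left, 14 loci) and in mrpl1-1 (right, 15 loci). Filled points mark loci whose replicates do not overlap, which are atp6-2 on the left and nad5 part C, nad9, ccmB, rpl16 and rps3 on the right.

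Nuclear genes that act on mitochondrial RNA were also given by their counts. The list held 18 genes, among them the phage-type RNA polymerase RPOTm, the polynucleotide phosphorylase mtPNPase, RNA helicases, editing factors and intron maturases. None was called in either comparison (limma, adjusted p under 0.05). With doxycycline 15 of 18 lay above wild type, with a median difference of 0.21 beside 0.00 (0.003) over all genes, and replicates did not overlap upward at 6 (33.3%, beside 8.51% of all genes). At mtPNPase, which degrades polyadenylated mitochondrial RNA, the libraries gave 8.68, 8.85 and 8.34 FPKM with doxycycline, against 5.59, 5.68 and 6.85 FPKM in wild type (limma, adjusted p = 0.433). RPOTm had 11.3, 11.3 and 9.95 FPKM with doxycycline, against 8.85, 8.24 and 8.57 FPKM in wild type (limma, adjusted p = 0.555). Both genes are among the 6 without overlap. Others on the list overlapped between groups. RPOTmp had 9.51, 7.79 and 7.45 FPKM with doxycycline, against 7.13, 5.18 and 9.06 FPKM in wild type. RNR1 had 12.9, 13.3 and 15.9 FPKM with doxycycline, against 13.5, 13.2 and 10.7 FPKM in wild type. The largest difference with doxycycline was 0.48, at PMH1, and the genes below wild type were nMAT4 (-0.29), RUG3 (-0.18) and SUV3 (-0.07). In mrpl1-1 8 of 18 lay above wild type, with a median of -0.09 and 1 locus, 5.56%, without overlap, higher. MRPL1 itself (AT2G42710) had 19.6, 12.0 and 18.6 FPKM in mrpl1-1, against 19.4, 17.9 and 25.1 FPKM in wild type, so its transcript level does not separate the labels.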

How the data were processed

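The authors deposited FPKM per gene in 2 tables of 33557 rows. Per the submitters' processing notes, FastQC 0.10.1 and Cufflinks 2.2.1 were used with the build TAIR10. Aligner, strand setting and handling of multiply matching reads are not given in the sources used here. As FPKM is scaled by length and depth, short loci and shallow libraries have coarse values. The wild-type columns of the tables differ by a factor of about 0.94058, so each comparison was fitted within its own table.

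Log2(FPKM + 1) was tested for genes whose mean over 6 libraries was 1 FPKM or more, with limma 3.58.1 in R 4.3.3 (trend, Benjamini-Hochberg over all genes, threshold 0.05), after a check on simulated data. Depth is not in the files; low values put it at roughly 3.1 to 8.7 M reads per library, without exact counts, so no count test was run. Locus names follow standard nomenclature, which the tables do not give. Of the 41, 17 are named in the annotation of chromosome 2. Laid on the RefSeq gene order, 35 of 40 adjacent pairs had locus numbers within 150 of each other. That window is too wide to check single names or swaps between near neighbours. Windows of 50 bases were compared with TAIR10.1 using Biopython 1.88. Every locus with a mean of 1 FPKM or more could be named, with values per library for loci of known function, the 3 highest other loci and those without overlap; ATMG00050 and ATMG00120 were added as neighbours after their values were seen, as was the sum over 5 neighbouring loci. Members, lists and alternatives were chosen with earlier results of these data known. The labels give biological replicates without naming separate cultures, so p-values measure the spread between these samples. Samples were fitted without pairing by replicate number, and whether equal numbers share a batch could not be decided. Alternatives are described in the closing section.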

Additional observations from a re-analysis of the deposited data

How the results depend on the processing

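No mitochondrion-encoded gene was called at an adjusted p under 0.05 (limma) under any alternative run, 15 with doxycycline and 17 in mrpl1-1. The direction of the 8 loci without overlap is fixed by how they were chosen; their adjusted p ran from 0.0575 to 0.915 in the doxycycline comparison and from 0.373 to 1 in mrpl1-1. Over all genes, doxycycline called 35, and 20 without a filter, 21 without the trend, 126 with array weights, 7 with the replicate block and 9 to 91 when single libraries were left out; the highest count, 91, was without wild-type replicate 3. For mrpl1-1 the 7 genes became 4 with a pseudocount of 5 FPKM, 4 without a filter, 2 with a filter of 5 FPKM, 18 with array weights, 6 with the replicate block and 5 to 11 without single libraries. The cause was not tested. The median of the mitochondrial loci ranged from -0.19 (-0.189, without wild-type replicate 1) to 0.001 with doxycycline and from -0.03 (-0.033, without mutant replicate 2) to 0.70 (0.704) in mrpl1-1. Without mutant replicate 2 and wild-type replicate 3, an alternative chosen after seeing the data, it was 0.02 (0.019), and without mutant replicate 2 but with libraries rescaled over nuclear genes, also added later, -0.03. Correlations of deviations between samples with the same number were -0.03, 0.08 and 0.06 with doxycycline and -0.08, 0.03 and -0.07 in mrpl1-1. Doxycycline replicates 2 and 3 and mutant replicate 2 correlated best with their own number, and the others did not. With 3 samples per group, these weak correlations cannot decide whether samples with the same number share a batch. Measured protein-coding loci rest on an estimated 15 reads per value at the median; how far depth sets the spread was not tested.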

Other observations

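In the chromosome 2 range of the insertion, 9 loci had a mean of 1 FPKM or more. All of them but AT2G07680 and AT2G07690 were also highest in mutant replicate 2. Whether their reads came from nuclear or mitochondrial transcripts was not determined. AT2G07711 had 6.73, 19.0 and 4.50 FPKM in mrpl1-1, against 2.88, 2.89 and 3.25 FPKM in wild type. AT2G07808, annotated as a pseudogene of ATMG01330, had 10.8, 51.7 and 5.53 FPKM in mrpl1-1, against 14.1, 11.2 and 11.1 FPKM in wild type. ATMG01330 itself had 4.17, 8.53 and 0 FPKM in mrpl1-1, against 1.61, 1.53 and 1.42 FPKM in wild type. With doxycycline AT2G07711 had 3.15, 2.96 and 4.03 FPKM, against 3.06, 3.08 and 3.45 FPKM in wild type. Replicates of AT2G07711 did not overlap in mrpl1-1 and overlapped with doxycycline, and those of AT2G07808 and ATMG01330 overlapped in mrpl1-1. These loci were chosen after their values were seen.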
